A study of Homo sapiens with 27 samples.

Results

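The genes described are 45 interferon-stimulated and antiviral sensing genes, chosen by symbol from 46 names of which DDX58 and RIGI are the same gene, out of 67130 rows in each of the 2 deposited count tables. RNA was sequenced in 27 libraries of human cell lines that lack their own ARID1A, a subunit of the BAF chromatin remodelling complex. In 293T, an embryonic kidney line, the 6 groups were the knockout alone (KO) and the knockout with lentiviral, Flag-tagged ARID1A as wild type (WT), V2084D, G2087E, G2087R or K2025E. In Huh7, a liver cancer line, the 3 groups were the knockout with WT, with V2084D, and with V2084D plus knockdown of STUB1 (shSTUB1), a chaperone-associated ubiquitin ligase. Every group held 3 libraries. A Huh7 knockout without ARID1A and a WT group with the knockdown were not analysed here. The labels do not say whether libraries came from separate cultures, or whether a line is 1 clone, so p-values measure the spread between these libraries, which may be technical.

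Cells detect viral RNA with the helicases RIG-I (RIGI) and MDA5 (IFIH1) and with TLR3, and DNA with cGAS. Downstream of the helicases and of cGAS, the adaptors MAVS and STING, respectively, lead to activation of IRF3 and IRF7, which switch on interferon beta. Interferon acts back through factors that include STAT2 and IRF9, which bind a promoter element (the interferon-stimulated response element, ISRE) and induce effectors such as the IFIT, OAS and MX families, and IRF3 can induce some of these effectors without interferon. 293T cells are widely known to respond weakly to foreign DNA.

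Library totals were 33429483 to 55539529 counts for 293T and 59124374 to 79915177 for Huh7. Levels are CPM, the usual per-library scaling of read counts, with TMM factors. ARID1A was at 117 to 193 CPM in KO and at 5690 CPM or more in the 293T libraries given ARID1A, except G2087R replicates 1 and 2, at 291 and 324 CPM. On principal components, K2025E replicates 2 and 3 stood apart in 293T and shSTUB1 replicate 2 in Huh7. Without that shSTUB1 library, 18 members in place of 17 were called against V2084D and 26 in place of 25 against WT. Of all genes, 18.6% in place of 21.5% and 41.5% in place of 45.1% were then called. STUB1 was at 73.8 ± 9.04 CPM (SD, n = 3) with shSTUB1 and at 265 ± 26.9 CPM in V2084D. The label Huh7 went against the liver markers: none of 18 hepatocyte genes reached a mean of 1 CPM in the libraries labelled Huh7, and their summed level was 2.75 to 8.36 CPM per library. Of 12 genes that mark the 293 line, 9 reached a mean of 1 CPM there, against 10 in 293T. For this reason "Huh7" below stands for the libraries so labelled.

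The ISRE core was searched as GAAA, any 2 bases and GAAA again, on both strands of RefSeq promoters (build GRCh38.p14), in windows of 250 bases before to 50 after the gene's start. It was in 23 of the 35 member promoters in the table, or 65.7%, and in 1255 of 35116 windows of all genes, or 3.57%. Only the first entry of a member was searched, though 6 members had more than 1, while the windows of all genes included every entry. The second interferon element, GAS, searched as TTCNNNGAA, was in 11 of 35 member promoters (31.4%) and in 7.66% of all windows. The 2 motifs can overlap. CGAS, STING1, IRF3, IRF7, USP18, IFIT2, OAS2, OASL, IFITM2 and MX2 had no entry. A match is a description of the letters and not a bound site. A promoter without a match may still hold a variant of the element, since only this spacing was searched.

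The bases before the start are shown for 7 members on which the results turn, 5′ to 3′ on the gene's strand, with every ISRE match in capitals. IFIT1 (chr10:89392373-89392622, plus strand), IFIT3 (chr10:89327747-89327996, plus) and HERC5 (chr4:88456869-88457118, plus) had the motif and were lower with V2084D in Huh7. ISG15 (chr1:1013247-1013496, plus) and BST2 (chr19:17405631-17405880, minus) had it too and were not lower with V2084D. RIGI (chr9:32526197-32526446, minus) and IFNB1 (chr9:21077943-21078192, minus) had no match to the searched pattern, and variants with another spacing were not searched.
IFIT1: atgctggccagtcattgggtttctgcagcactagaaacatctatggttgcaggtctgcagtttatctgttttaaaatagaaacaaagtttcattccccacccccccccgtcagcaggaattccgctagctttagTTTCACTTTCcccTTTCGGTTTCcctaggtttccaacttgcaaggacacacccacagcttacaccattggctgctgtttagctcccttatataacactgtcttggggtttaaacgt
IFIT3: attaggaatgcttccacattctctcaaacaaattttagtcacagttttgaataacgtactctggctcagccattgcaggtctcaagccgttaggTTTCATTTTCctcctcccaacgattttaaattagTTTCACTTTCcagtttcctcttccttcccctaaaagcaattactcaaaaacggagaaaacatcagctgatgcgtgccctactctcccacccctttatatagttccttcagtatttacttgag
HERC5: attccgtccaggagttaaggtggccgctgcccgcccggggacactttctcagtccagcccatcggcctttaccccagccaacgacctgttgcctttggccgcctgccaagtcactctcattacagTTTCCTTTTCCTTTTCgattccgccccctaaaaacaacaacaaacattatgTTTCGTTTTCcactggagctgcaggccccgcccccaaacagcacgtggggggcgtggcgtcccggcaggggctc
ISG15: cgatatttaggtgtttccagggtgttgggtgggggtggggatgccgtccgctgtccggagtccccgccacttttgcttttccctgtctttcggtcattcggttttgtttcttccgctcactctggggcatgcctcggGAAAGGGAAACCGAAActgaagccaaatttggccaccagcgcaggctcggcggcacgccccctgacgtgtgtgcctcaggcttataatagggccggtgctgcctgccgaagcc
BST2: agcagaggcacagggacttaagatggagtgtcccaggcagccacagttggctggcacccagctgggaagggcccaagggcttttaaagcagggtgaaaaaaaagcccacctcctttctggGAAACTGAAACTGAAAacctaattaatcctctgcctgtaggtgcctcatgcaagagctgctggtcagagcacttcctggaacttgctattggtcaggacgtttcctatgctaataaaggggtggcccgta
RIGI: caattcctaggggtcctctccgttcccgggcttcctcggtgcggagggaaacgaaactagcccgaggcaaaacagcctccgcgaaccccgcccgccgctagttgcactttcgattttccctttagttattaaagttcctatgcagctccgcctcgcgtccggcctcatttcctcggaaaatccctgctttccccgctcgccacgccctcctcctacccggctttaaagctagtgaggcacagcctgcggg
IFNB1: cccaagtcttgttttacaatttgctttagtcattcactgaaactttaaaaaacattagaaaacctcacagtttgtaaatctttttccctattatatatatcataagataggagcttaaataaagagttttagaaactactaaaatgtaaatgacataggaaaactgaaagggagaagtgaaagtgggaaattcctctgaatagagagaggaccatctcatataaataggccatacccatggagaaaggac
IFIT1 and IFIT3 each held 2 matches and HERC5 held 3, of which a pair overlapped. In ISG15 and BST2 the 2 matches overlapped into 1 run.

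With a group mean above 1 CPM taken as expressed, 28 of the 45 genes were expressed in all 9 groups. CGAS, OAS1, OAS2, MX2 and PARP14 were expressed in none. IFNB1, TLR3, MX1, RSAD2, IFI44 and IFI44L were expressed in a Huh7 group and in no 293T group, and IRF7 only in 293T groups. By group, 29 to 32 genes were expressed in 293T and 38 or 39 in Huh7. A low-count filter for the tests was passed by 40 members in 293T (not by IFNB1, OAS1, MX2, RSAD2 or PARP14) and by 44 in Huh7 and in the joint fit (not by PARP14). In bulk RNA, fewer expressing cells and less RNA per cell cannot be told apart.

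**Figure D1:**
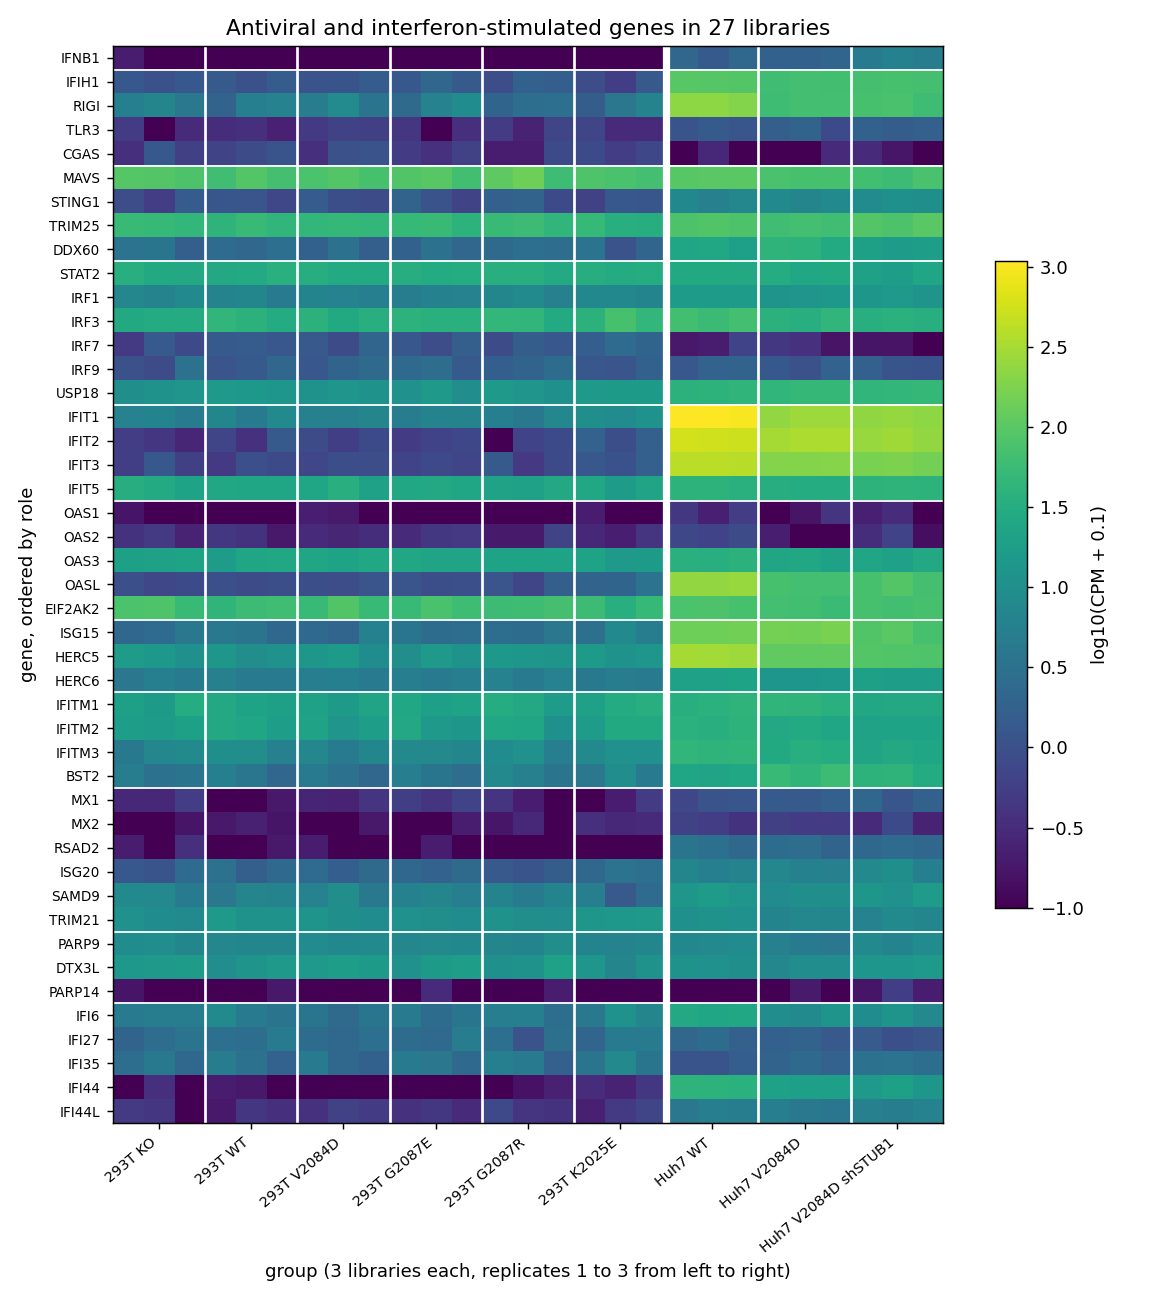
Level of each of the 45 genes (rows, by role) in each of the 27 libraries (columns, by group), as log10(CPM + 0.1), lighter for higher. The IFIT1, IFIT2, IFIT3, OASL, HERC5, RIGI and IFI44 rows are lighter in every Huh7 library than in any 293T library, and lightest in Huh7 WT.

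These genes differed widely between the lines. With WT ARID1A in both, 30 of 44 members were higher in Huh7 and 3 lower (edgeR quasi-likelihood F test, Benjamini-Hochberg adjusted p below 0.05), where 23.0% of 24546 genes were called in either direction, 10.5% higher and 12.5% lower. The median log2 difference, Huh7 minus 293T, was 1.73 over the members and -0.07 over all genes. ARID1A itself differed between these groups, at 342 to 400 CPM per library in Huh7 WT and 5690 to 62920 CPM in 293T WT (log2 difference -6.19 ± 1.34, edgeR adjusted p = 0.0017). The 6 fibroblast marker genes summed to 74.2 to 76.0 CPM per library in Huh7 WT and 40.4 to 55.0 CPM in 293T WT, and their part was not tested. Line, ARID1A level, deposited table and handling cannot be told apart in this comparison.

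IFNB1, which encodes interferon beta, had no count in any 293T WT library and 2.09, 1.30 and 2.15 CPM in Huh7 WT. Against a floor of 3 counts over the 293T WT group, the Huh7 mean was at least 90.9-fold higher. OAS1, a synthetase that activates RNase L, was likewise without a count in 293T WT and at least 15-fold higher, at a Huh7 mean of only 0.304 CPM, and its adjusted p was 0.0494 in edgeR's quasi-likelihood test and ran up to 0.235 over the alternatives. The members' median stayed at 1.73 with both genes at their bounds.

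Among the sensors, RIGI was at 1.86, 5.35 and 6.07 CPM in 293T WT and at 223, 228 and 195 CPM in Huh7 WT, a log2 difference of 5.55 ± 0.508 (SE). IFIH1 was at 1.28, 0.903 and 1.42 CPM in 293T WT and at 96.1, 93.9 and 88.7 CPM in Huh7 WT, a log2 difference of 6.22 ± 0.299. The libraries of the lines did not overlap for either gene. CGAS, the DNA sensor, was lower in Huh7 by a log2 difference of -3.61 ± 1.28 (adjusted p = 0.0434, edgeR), at means of 0.774 and 0.0633 CPM, a call lost in 9 of 15 alternatives.

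The adaptor MAVS was at 62.8, 91.6 and 70.2 CPM in 293T WT and at 98.3, 99.6 and 102 CPM in Huh7 WT and was not called. STING1, the adaptor in DNA sensing, was higher in Huh7 by 2.81 ± 0.427 on the log2 scale. IRF3, the first factor downstream, was at 45.9, 39.2 and 30.4 CPM in 293T WT and at 64.1, 56.8 and 68.7 CPM in Huh7 WT (log2 difference 0.66 ± 0.20, edgeR adjusted p = 0.0193). The groups did not overlap, but the call was lost with the replicate block and when Huh7 WT replicate 1 or 3 or 293T WT replicate 3 was left out. IRF7, which amplifies the response, was lower in Huh7 by a log2 difference of -2.39 ± 0.662, a call lost in 4 of 16 alternatives, the replicate block and Huh7 WT replicate 1 or 2 left out among them.

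Several effectors differed by more. IFIT1, which binds foreign RNA caps, was at 7.03, 4.71 and 8.54 CPM in 293T WT and at 1086, 1067 and 1005 CPM in Huh7 WT, 150-fold higher in the fit. IFIT2 and IFIT3, which form complexes with it, were higher by 9.55 ± 0.537 and 9.22 ± 0.372 on the log2 scale, from means of 0.729 and 0.656 CPM in 293T WT. OASL, a ubiquitin-like relative of the OAS enzymes that enhances RIG-I signalling, was at 0.865, 0.747 and 0.824 CPM in 293T WT and at 240, 240 and 256 CPM in Huh7 WT. No library of either line came near the other for these 4 genes. ISG15, the ubiquitin-like protein attached by HERC5, was at 3.96, 3.47 and 2.17 CPM in 293T WT and at 141, 137 and 149 CPM in Huh7 WT. Per kilobase of exon, IFIT1 was the highest member in Huh7 WT at 228 CPM per kb, followed by IFIT3 at 156 and ISG15 at 152, which lay close together.

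**Figure D2:**
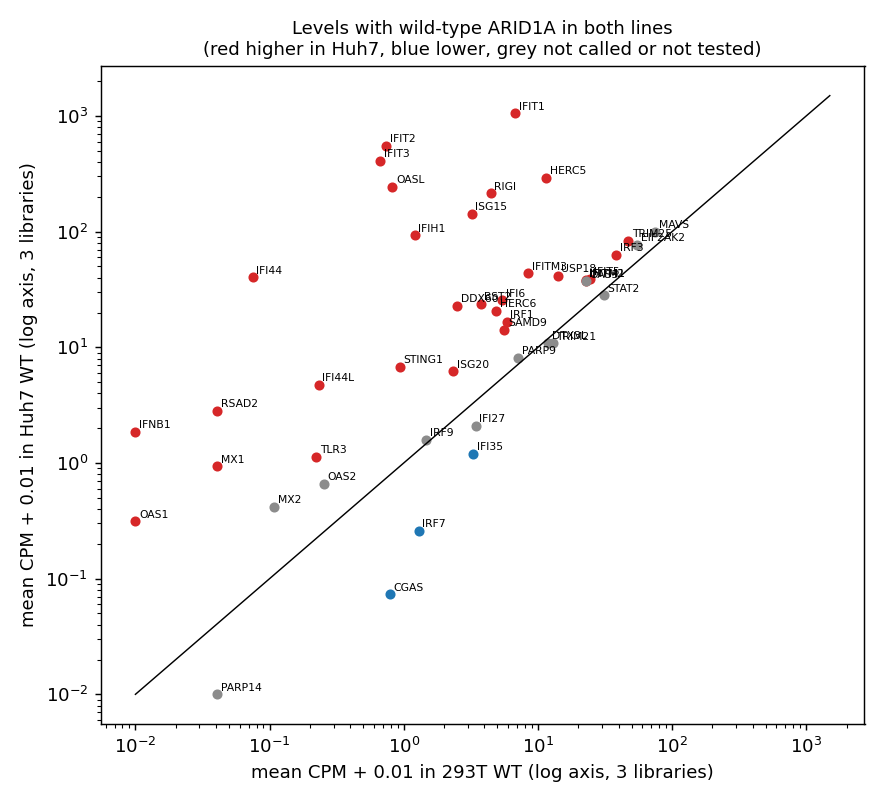
Mean CPM of each member, plus the small constant on the axis labels, in 293T WT (x axis) and Huh7 WT (y axis), both on log scales, each point a gene and the colour its call. Most points lie above the line of equal levels, with IFIT1, IFIT2, IFIT3, OASL and IFI44 far above it.

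Of 85 other genes of the pathway tested, 29 were higher (34.1%) and 2 lower (2.35%) in Huh7 WT, against 10.5% and 12.5% of all genes. The chemokine gene CCL5 was higher by 11.97 ± 0.647 on the log2 scale, B2M, the light chain of MHC class I, by 2.17 ± 0.167, LGALS3BP by 2.80 ± 0.271 and DHX58, the third RIG-I-like receptor, by 2.46 ± 0.293.

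In Huh7, V2084D was compared with WT to see how the mutant changes expression. Of 44 members, 23 were lower and 4 higher with V2084D, where 42.0% of 22510 genes were called in either direction, 20.0% lower and 22.0% higher. The median log2 difference was -0.37 over the members and 0.03 over all genes. Called or not, groups did not overlap for 24 members with V2084D lower and 6 with it higher. No share over all genes is given beside these counts, so they show nothing particular to the members. The lower members included RIG-I, IRF3, all 4 IFIT genes and 4 of the 5 double-stranded RNA effectors. USP18, BST2, DDX60 and IFI35 were the 4 that rose, and the call of IFI35 was lost in 4 of 14 alternatives. Marker sums moved between the same groups: 6 fibroblast genes summed to 74.2 to 76.0 CPM per library with WT and 85.9 to 92.4 CPM with V2084D, and the 18 hepatocyte genes to 5.44 to 8.36 and 2.99 to 3.98 CPM. Of these lists, 3 fibroblast genes and no hepatocyte gene reached a mean of 1 CPM in Huh7, and their part in the result was not tested. ARID1A itself was lower with V2084D, at 252 ± 31.2 against 369 ± 28.99 CPM, and its part in these differences was not tested.

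IFNB1 was at 1.69, 1.70 and 2.01 CPM with V2084D and at 2.09, 1.30 and 2.15 CPM with WT. The groups overlapped, with a log2 difference of -0.04 ± 0.223.

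Of the sensors, RIGI was at 61.6, 68.1 and 68.5 CPM with V2084D against 223, 228 and 195 CPM with WT. This was 3.26-fold lower (edgeR adjusted p = 8.96e-07). IFIH1 was at 63.4, 67.3 and 66.0 CPM with V2084D against 96.1, 93.9 and 88.7 CPM with WT (log2 difference -0.50 ± 0.0638). Neither gene's groups overlapped. Among adaptors, MAVS was at 74.5, 72.1 and 73.8 CPM with V2084D, below every WT library (log2 difference -0.45 ± 0.0902). TRIM25, a ubiquitin ligase that acts on RIG-I, was lower by a log2 difference of -0.38 ± 0.0866. DDX60, described as a cofactor of RIG-I, was at 41.5, 41.0 and 28.9 CPM with V2084D against 24.1, 25.5 and 18.7 CPM with WT, and rose by 0.70 ± 0.152 on the log2 scale.

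Of the transcription factors, IRF3 was at 39.7, 34.1 and 44.7 CPM with V2084D, below the 56.8 to 68.7 CPM of WT (log2 difference -0.68 ± 0.104). IRF1, an interferon-induced activator, was at 12.1, 12.5 and 14.1 CPM against 16.6, 16.3 and 16.7 CPM (log2 difference -0.36 ± 0.101), a call lost without V2084D replicate 1 or 2 and with offsets for GC content and length. USP18, which removes ISG15 and dampens interferon signalling, was at 45.3, 49.4 and 48.4 CPM against 39.0, 40.8 and 44.0 CPM. Its log2 difference of 0.21 ± 0.0652 had an adjusted p of 0.0249 in edgeR, which 6 of 14 alternatives lost. STAT2, IRF7 and IRF9 were not called.

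IFIT1 had the smallest adjusted p of the members. It was at 244, 276 and 275 CPM with V2084D against 1086, 1067 and 1005 CPM with WT, 3.97-fold lower (edgeR adjusted p = 3.3e-08). IFIT2 was at 310, 352 and 347 CPM against 567, 557 and 531 CPM (log2 difference -0.71 ± 0.0778). IFIT3 was at 195, 197 and 201 CPM against 415, 413 and 407 CPM (log2 difference -1.06 ± 0.0557). All V2084D libraries were below all WT libraries for these 3 genes. IFIT5, which lies in the same cluster on chromosome 10 (89414586 to 89421001, with IFIT1 at 89392546 to 89406486), was lower by a log2 difference of only -0.29 ± 0.065.

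OASL was at 72.3, 67.6 and 66.5 CPM with V2084D against 240, 240 and 256 CPM with WT, 3.56-fold lower (edgeR adjusted p = 4.21e-07). OAS3, the long OAS enzyme, was lower by a log2 difference of -0.67 ± 0.123. EIF2AK2, the kinase PKR that halts translation, was at 68.1, 64.2 and 56.1 CPM against 79.2, 79.6 and 71.8 CPM, a log2 difference of -0.29 ± 0.0879 that 3 of 14 alternatives did not call. OAS2 passed the test at very low level, with 8, 0 and 0 counts against 37, 34 and 52, a call lost when V2084D replicate 2 or 3 or WT replicate 1 or 3 was left out.

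HERC5, the main ligase for ISG15, was at 113, 110 and 114 CPM with V2084D against 307, 296 and 278 CPM with WT, 2.61-fold lower (edgeR adjusted p = 1.44e-07). HERC6, its relative, was at 13.2, 12.9 and 14.2 CPM against 20.0, 20.4 and 21.6 CPM (log2 difference -0.62 ± 0.087). Both genes' groups were apart. ISG15 itself was at 155, 152 and 170 CPM against 141, 137 and 149 CPM, a log2 difference of 0.15 ± 0.113 that was not called (edgeR adjusted p = 0.31), although the groups did not overlap.

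At membranes, IFITM3, which blocks viral fusion, was at 28.2, 33.7 and 31.7 CPM with V2084D against 44.9, 41.5 and 44.4 CPM with WT (log2 difference -0.48 ± 0.0908). IFITM1 was at 43.8, 42.5 and 35.8 CPM against 34.2, 37.5 and 41.9 CPM, and the groups overlapped. BST2, or tetherin, which holds budding virions at the surface, went the other way with a log2 difference of 1.14 ± 0.132, from a mean of 23.7 to 52.2 CPM. IFITM1, IFITM2 and IFITM3 are near-identical in sequence, so their counts are uncertain. Exons of CGAS, TRIM25, IRF1, IRF3, IFIT2, OAS1, EIF2AK2, ISG15, IFITM3, MX1, RSAD2, PARP9 and DTX3L overlap another gene on the opposite strand. On the same strand, exons of IFITM1 and IFITM2 overlap, and those of TRIM25, IFIT2 and IRF9 overlap other genes.

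Of the remaining effectors, TRIM21, an antibody receptor in the cytosol, was at 6.59, 7.37 and 6.97 CPM against 10.4, 11.3 and 10.9 CPM (log2 difference -0.63 ± 0.13). IFI44 was at 20.6, 18.6 and 19.2 CPM against 41.6, 41.2 and 37.7 CPM (log2 difference -1.05 ± 0.129). IFI6, a mitochondrial and endoplasmic reticulum protein, was lower by a log2 difference of -1.36 ± 0.174. DTX3L was at 7.20, 9.33 and 9.42 CPM against 11.9, 10.9 and 10.1 CPM and was not called, while its partner PARP9 was lower by a log2 difference of -0.79 ± 0.18. Reads of these 2 genes, whose exons overlap on opposite strands, may be shared, since the strand setting is not given in the sources used here. MX1, MX2, RSAD2 and ISG20 were not called.

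**Figure D3:**
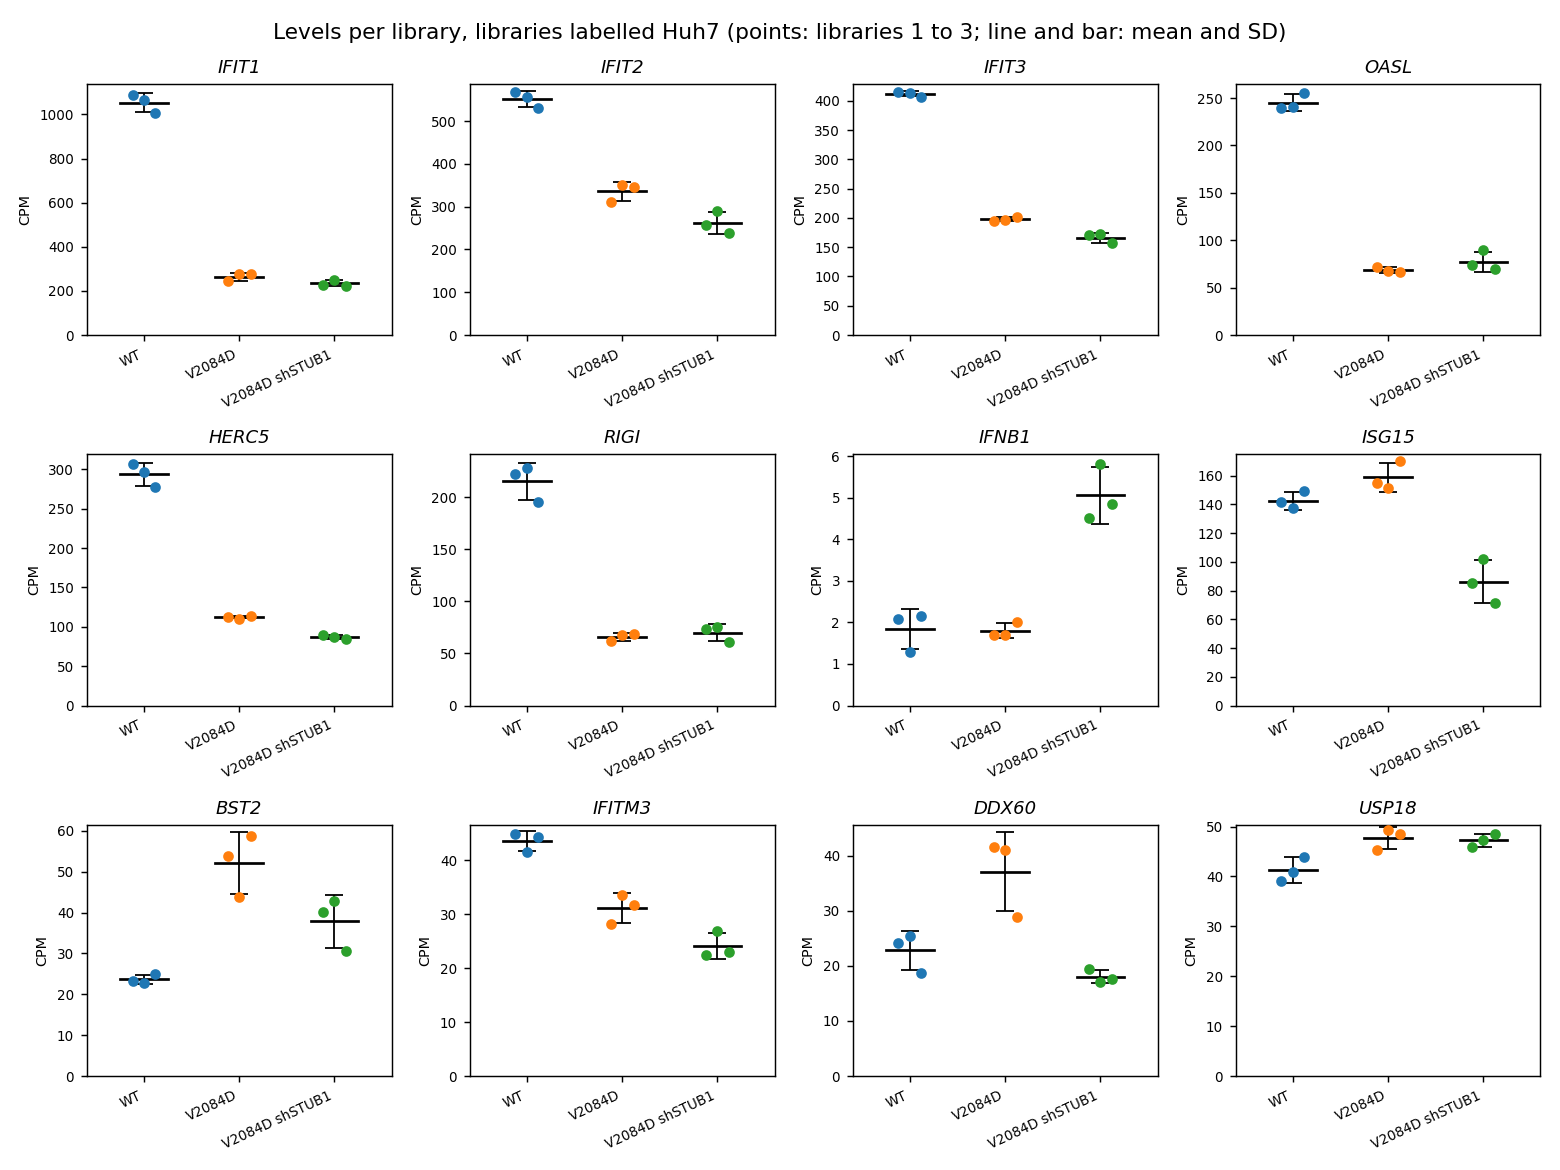
CPM of 12 members in each Huh7 library (points), with the mean and SD of the 3 libraries (line and bar), by group. IFIT1, IFIT2, IFIT3, OASL, HERC5 and RIGI are highest in WT, BST2 and DDX60 in V2084D, and IFNB1 in V2084D with shSTUB1.

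The ISRE core stood in 12 of 18 promoters of members that were lower and had an entry, in 2 of 3 that were higher (DDX60 and BST2) and in 8 of 13 that were not called. Of 82 other pathway genes, 28 were lower (34.1%) and 11 higher (13.4%) with V2084D, against 20.0% and 22.0% of all genes. In either direction the shares were 47.6% and 42.0%. DHX9, an RNA helicase, was lower by a log2 difference of -1.30 ± 0.0625, SAMHD1, which depletes nucleotides, by -0.93 ± 0.0725, APOL2 by -0.85 ± 0.0746 and ZC3HAV1, the antiviral protein ZAP, by -0.94 ± 0.0913.

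Knockdown of STUB1 in V2084D cells asks how the ligase bears on the mutant's expression profile. The sample titles name no control knockdown for V2084D or WT. Loss of STUB1 and the knockdown procedure itself therefore cannot be told apart here. Of 44 members, 7 were higher and 10 lower with shSTUB1 than with V2084D alone, where 21.5% of genes were called, 10.8% in each direction. The median log2 difference was -0.000745 over the members and -0.00349 over all genes. The count fell to 11 without shSTUB1 replicate 1, where the share of all genes called fell to 13.4%. The 12 genes of the 293 line summed to 374 to 392 CPM per library with shSTUB1, below the 414 to 451 CPM of V2084D and the 430 to 458 CPM of WT, and their part in the results was not tested. IFNB1, DTX3L, PARP9, SAMD9, TRIM25, HERC6 and IFIT5 rose, though the call of SAMD9 was lost in 9 of 14 alternatives and that of PARP9 in 3.

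IFNB1 was at 4.51, 5.82 and 4.84 CPM with shSTUB1 and at 1.69, 1.70 and 2.01 CPM without it, 2.81-fold higher (edgeR adjusted p = 0.00133). The groups did not overlap, and the knockdown group was also above WT, by a log2 difference of 1.45 ± 0.224. The sensors did not follow: RIGI was at 73.9, 75.7 and 60.5 CPM and IFIH1 at 70.7, 72.4 and 69.4 CPM with shSTUB1, with log2 differences from V2084D of 0.09 ± 0.0982 and 0.11 ± 0.0637, neither called.

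ISG15 was at 85.7, 102 and 71.4 CPM with shSTUB1 against 155, 152 and 170 CPM without, 1.84-fold lower (edgeR adjusted p = 0.000639). DDX60 was at 19.5, 17.1 and 17.6 CPM, below all V2084D libraries (log2 difference -1.04 ± 0.153). HERC5 was at 89.0, 87.1 and 84.7 CPM, a further step down of -0.37 ± 0.0593 on the log2 scale. The groups were apart for all 3 genes. IFIT2 was at 258, 289 and 237 CPM and IFIT3 at 170, 172 and 156 CPM with shSTUB1, with log2 differences of -0.36 ± 0.0775 and -0.25 ± 0.0552. IFIT1, at 229, 252 and 224 CPM, was not called (edgeR adjusted p = 0.0897), and OASL, at 73.8, 89.2 and 69.3 CPM, was not either.

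All 4 membrane factors were lower with shSTUB1. IFITM1 was at 24.9, 27.3 and 27.3 CPM (log2 difference -0.62 ± 0.0971) and IFITM3 at 22.4, 26.9 and 23.1 CPM (-0.37 ± 0.091). BST2 was lower by a log2 difference of -0.46 ± 0.13, and this call was lost in 8 of 14 alternatives, that of IFITM2 in 10 and that of IFITM3 in 4. HERC6 was at 19.6, 17.7 and 17.8 CPM, above V2084D by 0.45 ± 0.0869 on the log2 scale and below the 20.0 to 21.6 CPM of WT. DTX3L was at 13.3, 13.2 and 15.2 CPM, above V2084D by 0.68 ± 0.132. The ISRE core was in 7 of 8 promoters of the lower members with an entry and in 3 of 7 of the higher ones, and in 12 of 19 that were not called.

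Of 82 other pathway genes, 16 were higher (19.5%) and 12 lower (14.6%) with shSTUB1, against 10.8% of all genes in each direction. LGALS3BP was higher by 0.63 ± 0.0688 on the log2 scale, TAP2, a peptide transporter, by 0.61 ± 0.0742 and SP110 by 1.11 ± 0.168, while STAT3 was lower by a log2 difference of -0.53 ± 0.0765.

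Against WT, V2084D with shSTUB1 had 5 members higher and 20 lower of 44, where 45.1% of genes were called (23.5% higher and 21.7% lower), and a median log2 difference of -0.39 against 0.02 over all genes. This comparison shares its libraries with the 2 above. IFIT1 was 4.48-fold lower, HERC5 3.38-fold, OASL 3.17-fold and RIGI 3.07-fold (edgeR adjusted p from 1.66e-08 for IFIT1 to 1.04e-06 for RIGI). IFNB1, IFI35, BST2, STING1 and USP18 were the 5 that were higher, though the call of USP18 was lost in 8 of 14 alternatives and that of STING1 in 1. Of the other pathway genes, 12 were higher and 25 lower, among them ZC3HAV1 (-1.53 ± 0.0926), DHX9 (-1.02 ± 0.0622), PML (-0.95 ± 0.075) and B4GALT5 (-0.92 ± 0.0771), as log2 differences.

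**Figure D4:**
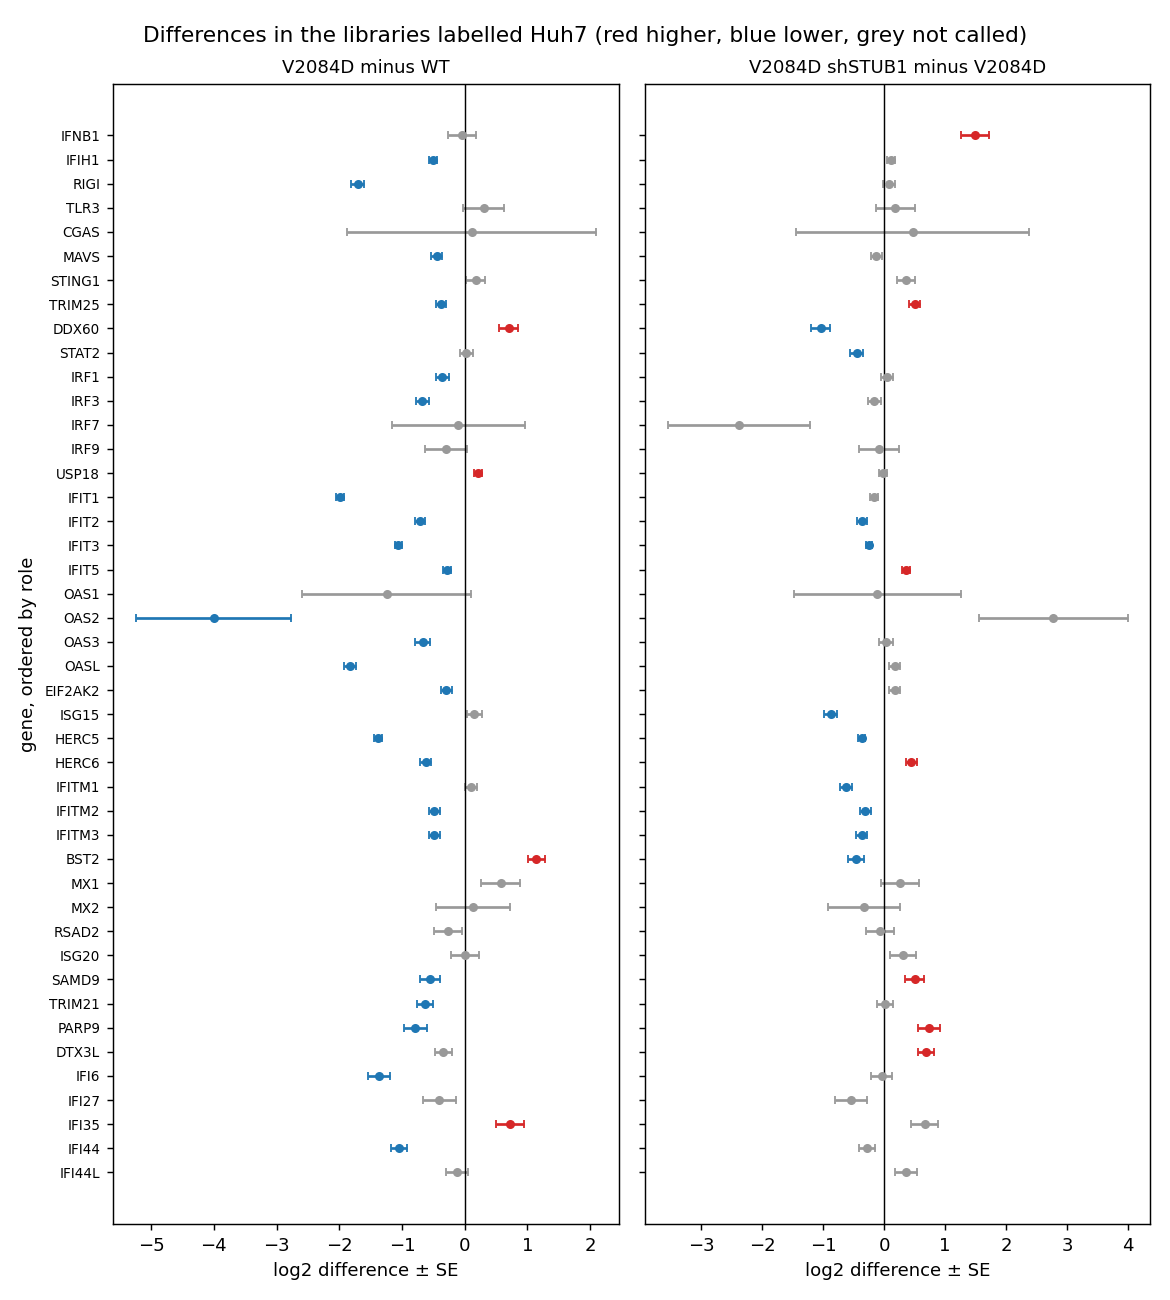
Log2 difference (x axis) with its standard error for the members tested in Huh7, for V2084D minus WT and for shSTUB1 minus V2084D. IFIT1, OASL, RIGI and HERC5 lie far below 0 in the former, and IFNB1 lies above 0 only in the latter.

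In 293T few of these genes were called. No member of 40 was called in 8 of the 9 comparisons. ARID1A itself was not called in 293T with WT, V2084D, G2087E or G2087R against KO. Its fold differences in the fit were 176, 473, 407 and 155 (edgeR adjusted p = 0.343, 0.468, 0.537 and 0.973). The absence of a call in these comparisons is therefore no sign that a gene was unchanged. For WT, V2084D, G2087E and G2087R against KO and for V2084D and G2087E against WT, 0% of 23201 genes were called. For G2087R and K2025E against WT the share was 0.00431%. At an unadjusted p below 0.05, edgeR gave 2 members for WT minus KO (11.0% of all genes), 2 for G2087E minus WT (2.05%), 1 for G2087R minus WT (4.45%) and 4 for K2025E minus WT (8.27%). It gave 0 for V2084D, G2087E and G2087R minus KO (4.83%, 5.66% and 4.31% of all genes) and for V2084D minus WT (2.01%). DESeq2 called 0 members in each of the 8, where it called 0.0603% to 0.302% of all genes. Leaving out the 2 G2087R libraries of low ARID1A left the counts at 0.

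K2025E minus KO was the comparison with calls: 4 members higher and none lower, where 12.9% of genes were called, 7.17% higher and 5.72% lower. OASL was at 1.80, 1.91 and 3.32 CPM with K2025E against 0.873, 0.633 and 0.716 CPM in KO, 3.15-fold higher (edgeR adjusted p = 0.0095). IFIT1 was at 10.02, 8.81 and 11.5 CPM against 6.05, 6.58 and 4.36 CPM (log2 difference 0.84 ± 0.256, edgeR adjusted p = 0.0388). IRF3 was at 39.7, 73.7 and 46.2 CPM against 27.7, 29.8 and 29.9 CPM (0.87 ± 0.228). TRIM21 was at 13.4, 14.3 and 14.7 CPM against 10.99, 9.06 and 8.49 CPM (0.57 ± 0.18). The groups did not overlap for any of the 4 genes. Among the 40 members, called or not, groups did not overlap for 7 with K2025E higher and 2 with it lower. No share over all genes is given for this either, so the split shows nothing particular to the members. None of the 4 was called without K2025E replicate 2 or without replicate 3, libraries that stand apart from the other 293T libraries. Nor was any called when the 2 groups were fitted alone. The share of all genes called fell too, from 12.9% to 0.00419%, 2.56% and 2.1% in these 3 settings, in turn. The 293 line genes summed to 348 to 445 CPM per library in K2025E and 483 to 531 CPM in KO, and 7 leukocyte genes to 6.35 to 8.97 and 4.32 to 6.12 CPM, and their part in the result was not tested. Of 77 other pathway genes, 3 were higher, CNP and UBE2L6 among them, and 5 lower, with the interferon receptor kinases JAK1 and JAK2 among them.

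**Figure D5:**
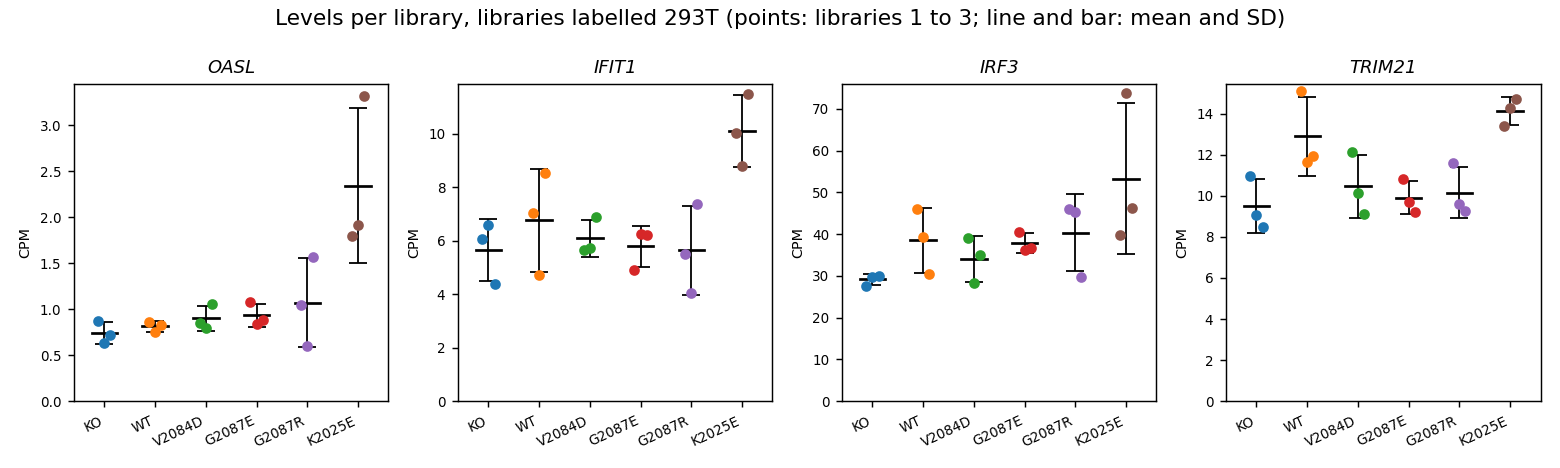
CPM of OASL, IFIT1, IRF3 and TRIM21 in each 293T library (points), with the mean and SD of the 3 libraries, by ARID1A form. K2025E lies above KO for all 4 genes, and its IRF3 values spread from 39.7 to 73.7 CPM.

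The V2084D effect was then compared between lines in the joint fit, as the difference of V2084D minus WT in Huh7 and in 293T. It was lower in Huh7 for 6 of 44 members and higher for none, where 9.72% of genes were called, 5.50% higher and 4.21% lower. The 6 were RIGI, IFIT1, OASL, HERC5, HERC6 and PARP9. Of these, OASL was not above 1 CPM in 293T WT or V2084D. Mean ARID1A was 69940 CPM with V2084D and 25960 CPM with WT in 293T, a difference that was not called. In Huh7 it was 252 CPM with V2084D and 369 CPM with WT. Line, ARID1A level, deposited table and handling cannot be told apart in the comparison of effects. IFIT1 was at 5.66, 5.72 and 6.88 CPM with V2084D in 293T against 7.03, 4.71 and 8.54 CPM with WT, and its difference between lines was -1.82 ± 0.272 on the log2 scale (edgeR adjusted p = 0.000125). HERC5 was at 13.5, 15.8 and 9.15 CPM with V2084D in 293T against 13.8, 9.60 and 11.2 CPM with WT, and its difference between lines was -1.52 ± 0.259. In 293T both genes' groups overlapped. Of 85 other pathway genes, 2 had a higher and 6 a lower effect in Huh7, DHX9 (-1.26 ± 0.178), APOL2 (-0.90 ± 0.179), MYD88 (-1.17 ± 0.27) and ZC3HAV1 (-1.03 ± 0.25) among the latter.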

How the data were processed

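RNA was sequenced in 27 libraries. The deposited tables give raw read counts by gene, made by the authors on build GRCh38, with edgeR named without a version, per the submitters' processing notes. The aligner, counting tool, annotation and strand setting are not given in the sources used here. Members and pathway lists were chosen with earlier results of these data known.

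Counts were tested in R 4.3.3 with edgeR 4.0.16 (TMM, filterByExpr with a minimum count of 10 and a total of 15, quasi-likelihood F test), in 1 fit per table with all its groups (23201 genes for 293T, 22510 for Huh7) and 1 joint fit of 24546 genes. Adjusted p is Benjamini-Hochberg over all genes of a comparison, and a call is an adjusted p below 0.05. The standard error of a log2 difference was taken as its size over the root of its F statistic. Whether the libraries of compared groups overlap is a description and not a test, and no share over all genes is given for it. Among 44 members, groups did not overlap for 36 higher and 5 lower in Huh7 WT than in 293T WT. For shSTUB1 minus V2084D, these were 10 higher and 10 lower. Values by library are given for up to 14 called members of smallest adjusted p and the highest member of each role, and up to 4 other pathway genes are named per comparison. OAS2 counts, chosen with their values in view, are an exception to this rule. Positions come from GENCODE 29, promoters from RefSeq. The scripts were tested on simulated data. Alternatives were DESeq2 1.42.0, other scaling and filters, a log2 difference of at least 1, the replicate number as a block, the compared groups alone and each library left out. After seeing the data, GC and length offsets and fits without outlying libraries were added. Replicate numbers met the pairing rule (every correlation of deviations over 0.1) only for G2087R minus WT, at 0.132, 0.178 and 0.315.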

Additional observations from a re-analysis of the deposited data

Results flagged for a closer look

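The V2084D effect differed between the libraries labelled Huh7 and 293T for 6 members, by an interaction test in the joint edgeR fit. The difference, Huh7 minus 293T on the log2 scale, was -2.07 ± 0.607 (SE) for RIGI (adjusted p = 0.031), -1.82 ± 0.272 for IFIT1 (adjusted p = 0.000125) and -1.96 ± 0.336 for OASL (adjusted p = 0.000542). It was -1.52 ± 0.259 for HERC5 (adjusted p = 0.000526), -0.67 ± 0.215 for HERC6 (adjusted p = 0.0494) and -0.97 ± 0.254 for PARP9 (adjusted p = 0.0152). The call of HERC6 was lost in 14 of 22 alternatives, that of RIGI in 7 and that of PARP9 in 1. Over its alternatives, the adjusted p of RIGI ran from 0.000659 to 0.103 and that of HERC6 from 0.00655 to 0.149. Line, ARID1A level, deposited table and handling cannot be told apart in these differences.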

How the results depend on the processing

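No called member or named pathway gene changed direction in any alternative run. The direction of members that were not called was not compared across runs. With a log2 difference of at least 1 required, 1 member was called for K2025E minus KO (4 as reported). The count was 9 for V2084D minus WT in Huh7 (27), 2 for shSTUB1 minus V2084D (17) and 10 for shSTUB1 minus WT (25). No share over all genes is given for this stricter call. K2025E minus KO gave 2 with no filter on low counts (5.29% of all genes called) and 0 on the compared groups only (2.1%). It gave 7 with the replicate block plus GC and length offsets (23.3%). Leaving out 1 library gave 0 to 8 there. The count was 1 without KO replicate 1 (4.47% of all genes), 2 without KO replicate 2 (3.95%) and 8 without K2025E replicate 1 (21.8%). Without K2025E replicate 2 or 3 it was 0 (0.00419% and 2.56% of all genes). For K2025E minus WT it was 0 to 2 (0% to 4.34%). In Huh7, leaving out 1 library gave 23 to 26 for V2084D minus WT (34.3% to 37% of all genes). The range was 11 to 18 for shSTUB1 minus V2084D (12.3% to 19.2%) and 21 to 26 for shSTUB1 minus WT (37.3% to 41.5%). The comparison of lines gave 25 to 29 (33 as reported), where 15.7% to 18.9% of all genes were called. The effect between lines (6 members, 9.72% of all genes) gave 3 to 7 (6.55% to 8.74%), with 3 without Huh7 V2084D replicate 3 (7.01%). It gave 10 with DESeq2 (13.6% of all genes) and 12 with GC and length offsets (16.9%). With the replicate block plus these offsets it gave 14 (21.3%). The cause was not tested. The replicate block alone gave 27, 14 and 24 members in the 3 Huh7 comparisons (38.9%, 17.7% and 41.8% of all genes). It gave 5 for K2025E minus KO (15.5%) and 0 for G2087R minus WT (0.00431%), the only comparison whose numbers met the pairing rule. Named genes kept their call in every alternative in 25 of 31 results for V2084D minus WT in Huh7, 15 of 21 for shSTUB1 minus V2084D, 25 of 29 for shSTUB1 minus WT, 28 of 37 between lines, 7 of 10 for the effect between lines and 0 of 8 for K2025E minus KO. Members near 1 CPM or below are limited by depth.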
